A study of Mus musculus with 21 samples.

Results

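Protease inhibitors of kidney macrophages were followed from Sham to RAS mice in 7 genes, of 34236 gene symbols in the count table. These were the serpins *Serpinb1a*, *Serpinb2*, *Serpina3g*, *Serpinb6a*, *Serpinb9* and *Serping1*, and the secretory leukocyte protease inhibitor *Slpi*. All 7 were found in the table. They were chosen from their measured levels in these 21 libraries, so their levels and fold changes are a description and carry no p-value. The table holds 61 other genes whose symbol starts with Serpin, and these, with lists of other protease inhibitors and of proteases, were tested where they passed a filter on low counts. The cells came from male C57BL/6J mice aged 24 weeks. In RAS mice a cuff narrowed the right renal artery (renal artery stenosis), and in Sham mice the artery was dissected free and left without one. CD45+, lineage-negative cells positive for F4/80 and CD64 were sorted by flow cytometry, with a sort time of 5 h, into CD11chi Mϕ (high in CD11b and CD11c), CD11clo Mϕ (high in CD11b, low to negative in CD11c) and kidney-resident macrophages (KRM, intermediate in both). There were 3 Sham and 4 RAS libraries of CD11chi Mϕ, 3 Sham and 4 RAS libraries of CD11clo Mϕ, and 4 Sham and 3 RAS libraries of KRM, each sequenced by RNA-Seq from ultra-low-input cDNA. The labels do not say whether libraries came from separate animals, so the errors below measure the spread between libraries, which may in part be technical.

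Serpins inhibit proteases by a suicide mechanism: the enzyme cuts an exposed loop of the inhibitor, the serpin folds around the cut, and the enzyme stays trapped in a covalent complex. Slpi belongs to another family, the whey acidic protein domain proteins, and blocks neutrophil elastase and cathepsin G reversibly at mucosal surfaces and around inflammatory cells. Clade B serpins such as Serpinb1a, Serpinb2, Serpinb6a and Serpinb9 lack a signal peptide and act mostly inside the cell, where they meet proteases released from granules and lysosomes. Serping1, the C1 inhibitor, is secreted and restrains the first complement proteases and the contact system.

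Library totals ran from 6891137 to 18592376 counts, and each level is a count divided by the TMM-scaled library size (CPM, computed in edgeR). Macrophage genes were detected in every library, and the 10 on the list summed to 18850 to 26530 CPM in KRM Sham, 16300 CPM in KRM RAS replicate 1 and 9475 and 11060 CPM in KRM RAS replicates 2 and 3, while *Itgax*, which encodes CD11c, was lowest in CD11clo Mϕ. Markers of kidney tubule (8 genes, such as *Slc34a1* and *Umod*) summed to over 1000 CPM in 5 libraries, at 7040 in CD11chi Sham replicate 3, 2244 in CD11clo Sham replicate 3, 1128 in KRM Sham replicate 3, 4544 in KRM RAS replicate 2 and 3488 in KRM RAS replicate 3, and to between 11.7 and 615 CPM elsewhere. The KRM RAS libraries fell apart into replicate 1 and the other 2. Over genes, replicates 2 and 3 had a Spearman correlation of 0.989 with each other, and of 0.833 and 0.863 with replicate 1. Replicate 1 was closer to the 4 Sham KRM libraries, at 0.952 to 0.963, and to CD11chi RAS replicate 1, at 0.956. Replicates 2 and 3 had correlations of 0.802 to 0.862 with the Sham KRM libraries. In the count table and the log2 TPM table the columns labelled KRM RAS replicate 1 had a Spearman correlation of 0.688, against 0.908 to 0.948 for the other libraries, and which of its 2 columns holds the labelled library was not settled. Its count column came closest to the log2 column of KRM Sham replicate 4, at 0.892. Count columns of KRM Sham replicate 1 and KRM RAS replicate 2 also came closest to another log2 column, but of their own group. Fold changes in KRM after RAS are therefore also given without replicate 1, and without the libraries of high tubule markers, which leaves replicate 1 as the only RAS library, so that these last values rest on it alone.

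*Slpi* had its highest group means in CD11clo Mϕ, lower ones in CD11chi Mϕ and the lowest in KRM. In RAS kidneys the CD11chi and KRM libraries overlapped. In CD11clo Mϕ it stood at 647, 630 and 160 CPM in the 3 Sham libraries and at 342, 397, 153 and 338 CPM in the 4 RAS libraries. In CD11chi Mϕ it measured 77.2, 126 and 154 CPM in Sham and 50.6, 25.4, 2.48 and 2.91 CPM in RAS. KRM held 9.27, 6.14, 8.28 and 7.32 CPM in Sham and 9.23, 2.34 and 2.93 CPM in RAS. Every Sham KRM library thus lay below every Sham library of the other populations, and every CD11chi RAS library lay below every CD11chi Sham library. Of all genes tested, 24.4% had no overlap between KRM and CD11chi Mϕ in Sham and 48.8% between KRM and CD11clo Mϕ in Sham. Between RAS and Sham the share was 6.85% in CD11chi Mϕ. Between Sham kidneys, the log2 fold change of KRM was -4.00 (standard error 0.30) against CD11chi Mϕ and -5.98 (standard error 0.51) against CD11clo Mϕ, and that of CD11chi Mϕ against CD11clo Mϕ was -1.90 (standard error 0.59), or -2.65 without the libraries of high tubule markers. In RAS kidneys the 3 differences were -2.03 (standard error 1.10), -5.97 (standard error 0.66) and -3.91 (standard error 0.90). The differences of KRM from CD11chi and CD11clo Mϕ were -2.90 and -6.83 without KRM RAS replicate 1 and -1.12 and -5.03 without the libraries of high tubule markers. Without CD11chi RAS replicate 1, KRM differed from CD11chi Mϕ by -1.01 and CD11chi from CD11clo Mϕ by -4.91. RAS against Sham gave -2.61 (standard error 0.99) in CD11chi Mϕ, or -3.64 without RAS replicate 1, where RAS replicates 3 and 4 were lowest. A list of 10 neutrophil markers was also lowest in those replicates, summing to 356, 153, 18.8 and 14.1 CPM in CD11chi RAS replicates 1 to 4, where 8 dendritic cell markers were highest in replicates 3 and 4, summing to 1203, 2160, 5333 and 5729 CPM. In CD11chi Sham replicates 1 to 3 the neutrophil list summed to 175, 239 and 47.4 CPM and the dendritic cell list to 1971, 1204 and 500 CPM. The part of either list in the difference was not tested. In CD11clo Mϕ the RAS and Sham ranges overlapped, with -0.63 (standard error 0.48). In KRM the value was -0.59 (standard error 0.48), -1.48 without RAS replicate 1 and 0.34 without the libraries of high tubule markers, so that its sign rested on the choice of libraries.

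*Serpinb2*, or plasminogen activator inhibitor 2, blocks urokinase and tissue plasminogen activator in vitro and accumulates inside activated monocytes and macrophages. It was high in CD11clo Mϕ, with 109, 72.1 and 29.1 CPM in Sham and 32.3, 89.4, 19.0 and 87.3 CPM in RAS. CD11chi Mϕ held 6.60, 52.7 and 36.6 CPM in Sham and 6.28, 3.01, 2.37 and 1.21 CPM in RAS. In KRM it was at 0 counts in Sham replicates 1, 2 and 4 and in RAS replicate 2, and at 4 counts in Sham replicate 3, 11 in RAS replicate 1 and 2 in RAS replicate 3. A count of 0 leaves up to 3 counts possible in a library, for counting error alone, and no fold change is given against KRM. The CD11chi RAS libraries all fell below the CD11chi Sham libraries, although the lowest Sham and the highest RAS value were only 6.60 and 6.28 CPM, and the log2 fold change was -3.37 (standard error 0.77), or -3.96 without RAS replicate 1. The ranges of 6.85% of all genes tested did not overlap in this comparison. In CD11clo Mϕ the groups overlapped at -0.30 (standard error 0.60). CD11chi against CD11clo Mϕ gave -1.03 (standard error 0.79) in Sham and -4.13 (standard error 0.64) in RAS kidneys.

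*Serpinb2* shares its end with a neighbour. On GRCm38 the gene lies at chr1:107511423-107535478 on the plus strand, and GENCODE vM21 places *Serpinb10*, counted here as *Serpinb10-ps*, over its last 6476 bases, with 291 exon bases in common. In 6 of 21 libraries the count of *Serpinb2* was not whole, that is, over 0.01 from a whole number. In each of these it became whole once *Serpinb10-ps* was added, so the split of reads between them is uncertain. *Serpinb10-ps* itself stood at 134, 54.3 and 70.5 CPM in CD11clo Sham, 26.2, 45.7 and 3.77 CPM in CD11chi Sham and at most 2.82 CPM in KRM. Summed over both genes, the log2 fold change of KRM in Sham kidneys was -4.85 against CD11chi Mϕ and -6.31 against CD11clo Mϕ, and that of RAS in CD11chi Mϕ was -2.24.

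The 250 bases before the RefSeq starts of *Serpinb2* and *Slpi* are shown because the group means of both genes followed the same order, CD11clo Mϕ over CD11chi Mϕ over KRM. Windows come from a set of RefSeq starts on GRCm38.p6, and the set used here held 5 of the 7 genes (*Serpinb2*, *Serpina3g*, *Serpinb6a*, *Serpinb9* and *Slpi*). The *Serpinb2* window is chr1:107511173-107511422 on the plus strand, and the *Slpi* window is chr2:164356508-164356757 on the minus strand. Capitals mark matches to any of 6 motifs searched on both strands, namely the TATA box TATAAA, the gamma-activated site TTCNNNGAA, the core of the interferon-stimulated response element (GAAA, any 2 bases, GAAA), the AP-1 site TGANTCA, the cAMP response element TGACGTCA and an NF-kB site (GGGA, any 4 bases, CC).
Serpinb2: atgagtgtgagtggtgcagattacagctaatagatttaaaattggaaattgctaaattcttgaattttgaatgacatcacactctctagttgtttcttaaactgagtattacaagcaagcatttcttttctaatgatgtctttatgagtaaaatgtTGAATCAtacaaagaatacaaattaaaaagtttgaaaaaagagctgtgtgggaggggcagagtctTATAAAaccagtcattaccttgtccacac
Slpi: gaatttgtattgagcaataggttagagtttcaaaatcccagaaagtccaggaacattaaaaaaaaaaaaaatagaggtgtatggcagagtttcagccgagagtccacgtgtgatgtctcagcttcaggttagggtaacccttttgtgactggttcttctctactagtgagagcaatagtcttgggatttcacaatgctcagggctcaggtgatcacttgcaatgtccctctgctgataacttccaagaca
In *Serpinb2* the AP-1 letters TGAATCA lay at -94 to -88 and the TATA box at -29 to -24 from the start. RefSeq also holds a second start, with a window at chr1:107511260-107511509 that overlaps the first. There the same AP-1 letters and TATA box lay at -181 to -175 and -116 to -111, and a gamma-activated site, TTCCAAGAA, at -77 to -69. Of 32851 windows of this length, 6.75% held an AP-1 match, 12.4% a TATA box and 7.02% a gamma-activated site. The *Slpi* window held none of the 6.

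**Figure D1:**
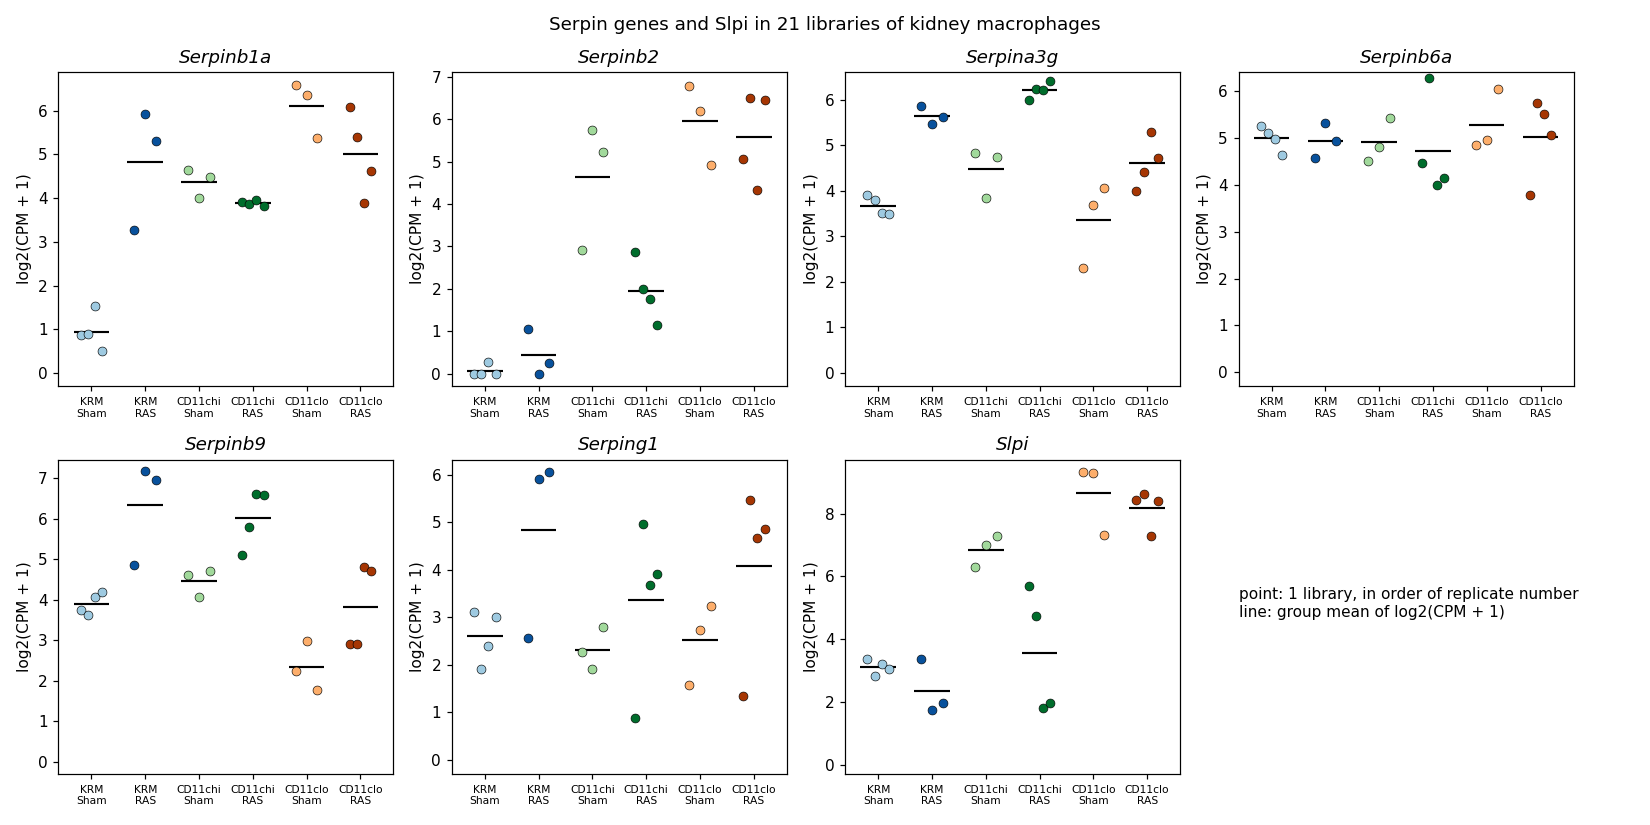
Level of each of the 7 genes as log2(CPM + 1), 1 panel per gene, with 1 point per library in the 6 groups of population and treatment and a line at the group mean of the log values. The means of *Slpi* and *Serpinb2* step down from CD11clo Mϕ to KRM, *Serpina3g* and *Serpinb9* have higher means in RAS in each population, and *Serpinb6a* stays within 12.7 to 76.9 CPM in all 21 libraries.

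*Serpinb1a*, an inhibitor of neutrophil elastase, cathepsin G and proteinase 3, was also highest in CD11clo Mϕ of Sham kidneys, but its level in KRM depended on RAS. KRM from Sham kidneys held 0.842, 0.847, 1.90 and 0.418 CPM, and KRM from RAS kidneys 8.64, 60.1 and 38.5 CPM. The RAS libraries all lay above the Sham libraries, for a log2 fold change of 5.16 (standard error 0.74), 5.53 without RAS replicate 1, 4.57 without RAS replicate 2, 5.77 without Sham replicate 3 and 3.66 without the libraries of high tubule markers. The ranges of 27.6% of all genes tested did not overlap between these groups. The 2 highest KRM libraries were also those of high tubule markers, and the part of those markers in the difference was not tested beyond these values. CD11chi Mϕ moved the other way, from 24.2, 15.1 and 21.2 CPM in Sham to 14.2, 13.5, 14.4 and 13.1 CPM in RAS, a log2 fold change of -0.64 (standard error 0.28). CD11clo Mϕ ranged from 40.4 to 94.8 CPM in Sham and from 13.9 to 66.5 CPM in RAS and overlapped, at -0.99 (standard error 0.51). In Sham kidneys KRM differed by -4.32 (standard error 0.52) from CD11chi Mϕ and by -6.07 (standard error 0.51) from CD11clo Mϕ, or by -4.90 and -6.69 without KRM Sham replicate 3. In RAS kidneys KRM stood above CD11chi Mϕ in replicates 2 and 3 and below in replicate 1, for 1.45 (standard error 0.54), and the value was 0.85 without KRM RAS replicate 2 and -0.63 without the libraries of high tubule markers.

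The neutrophil proteases that Serpinb1a and Slpi act on were scarce in the same libraries. *Elane*, neutrophil elastase, had 0 counts in all CD11chi and all KRM RAS libraries and reached a mean of 0.964 ± 0.983 CPM (SD, n = 3) in CD11clo Sham. *Ctsg*, cathepsin G, had its highest mean in the same group, at 0.473 ± 0.410 CPM (SD, n = 3). *Prtn3*, proteinase 3, measured 8.98 ± 7.53 CPM (SD, n = 3) in CD11clo Sham and 2.82 ± 1.16 CPM (SD, n = 4) in CD11clo RAS, and at most 1.39 CPM as a group mean elsewhere. It was lower in KRM than in CD11clo Mϕ of Sham kidneys, at 0.0562 ± 0.0652 CPM (SD, n = 4), and lower in CD11chi than in CD11clo Mϕ of RAS kidneys (edgeR's quasi-likelihood test, adjusted p = 0.000946 and 0.0176). The list of 10 neutrophil markers summed to between 994 and 3716 CPM in CD11clo Mϕ, to 14.1 to 356 CPM in CD11chi Mϕ and to 65.3 to 126 CPM in KRM. Of its members, *S100a8* reached 132 to 797 CPM in CD11clo RAS, while *Ly6g* was at 0 in CD11chi Mϕ and KRM and at most 0.452 CPM in CD11clo Mϕ. The lineage gate of the sort was set to remove granulocytes. A list of 11 genes of serous cavity macrophages was lowest in KRM, at 35.6 to 110 CPM against 601 to 2359 CPM elsewhere. The part of either list in the levels of *Slpi*, *Serpinb2* and *Serpinb1a* was not tested. In bulk samples, fewer cells of a type and less RNA per cell cannot be told apart.

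*Serpina3g*, also called Spi2A, inhibits lysosomal cathepsins in the cytosol of immune cells and is known as a target of interferon gamma. Its mean was higher in RAS in all 3 populations, without overlap in 2 of them. Of all genes tested, 27.6% had no overlap between RAS and Sham in KRM, 6.85% in CD11chi Mϕ and 8.41% in CD11clo Mϕ. CD11chi Mϕ held 27.3, 13.4 and 25.9 CPM in Sham and 62.2, 74.5, 73.5 and 83.8 CPM in RAS, a log2 fold change of 1.63 (standard error 0.31). KRM held 14, 12.9, 10.4 and 10.1 CPM in Sham and 56.7, 43.5 and 48.4 CPM in RAS, at 2.17 (standard error 0.17). This value was 2.04 without RAS replicate 1 and 2.25 without the libraries of high tubule markers. CD11clo Mϕ held 3.93, 11.9 and 15.7 CPM in Sham and 15, 20.3, 38.1 and 25.3 CPM in RAS, and here the lowest RAS library fell within the Sham range, at 1.20 (standard error 0.51). The order of the group means ran from CD11clo Sham over KRM Sham, CD11chi Sham and CD11clo RAS, each neighbour overlapping the next, to KRM RAS and then CD11chi RAS, both of which stood apart from the group below. A list of 8 T and NK cell markers summed to 60.9 to 255 CPM in CD11chi RAS and 6.48 to 26.7 CPM in CD11chi Sham. In KRM it summed to 35.6 to 350 CPM in RAS and 1.69 to 3.01 CPM in Sham. CD11clo Mϕ had 11.8 to 34.7 CPM in RAS and 4.14 to 7.85 CPM in Sham. The part of this list in the values of *Serpina3g* was not tested.

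Reads of *Serpina3g* are hard to place. The gene lies at chr12:104236245-104241939 on the plus strand of GRCm38 among near-identical copies. Its counts were not whole, by the same limit of 0.01, in 14 of 21 libraries but whole once other *Serpina3* genes were added. Of the counts given to *Serpina3g* and *Serpina3f*, its closest expressed copy here, *Serpina3g* held 72.8% to 94.2% in each library. *Serpina3f* stood at 2.14 ± 0.347 CPM (SD, n = 4) in KRM Sham and 6.95 ± 1.31 CPM (SD, n = 3) in KRM RAS, a log2 fold change of 1.81 (standard error 0.28, edgeR adjusted p = 0.0202), and it was not called without RAS replicate 2 or 3, or Sham replicate 1, 2 or 4. Summing both genes changed the KRM value of *Serpina3g* to 2.12 and the CD11chi value to 1.53.

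*Serpinb9*, the inhibitor of granzyme B, was highest in KRM and CD11chi Mϕ of RAS kidneys and lowest in CD11clo Mϕ of Sham kidneys. In KRM it measured 12.4, 11.3, 15.6 and 17.1 CPM in Sham and 28.0, 144 and 122 CPM in RAS, and in CD11chi Mϕ 23.3, 15.6 and 25.0 CPM in Sham and 33.1, 54.4, 96.4 and 93.9 CPM in RAS. In both populations every RAS library lay above every Sham library, but replicate 1 was the lowest RAS library in each. Of all genes tested, 27.6% in KRM and 6.85% in CD11chi Mϕ had no overlap between RAS and Sham. CD11clo Mϕ held 3.72, 6.84 and 2.43 CPM in Sham and 6.49, 6.44, 26.8 and 24.9 CPM in RAS, with RAS replicates 1 and 2 inside the Sham range. The log2 fold changes of RAS were 2.91 (standard error 0.50) in KRM, 1.60 (standard error 0.42) in CD11chi Mϕ and 1.89 (standard error 0.67) in CD11clo Mϕ. In KRM the value was 3.30 without RAS replicate 1 and 1.09 without the libraries of high tubule markers.

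Its target was measured in the same cells. *Gzmb*, granzyme B, reached 27.0 CPM in CD11chi RAS replicate 1 and 27.8 CPM in KRM RAS replicate 1, and was at most 4.12 CPM in every other library. Those were the libraries of highest T and NK cell markers, whose 8 genes summed to 255 and 350 CPM, and they held the least *Serpinb9* of their groups. The lineage gate of the sort was set to remove T and NK cells as well. The dendritic cell markers given above (among them *Zbtb46* and *Cd209a*) were lowest in CD11chi RAS replicate 1, then 2, and highest in 3 and 4, and so was *Serpinb9*, with the order of 3 and 4 turned. In CD11chi Sham *Serpinb9* did not follow them. In KRM the same list lay between 169 and 254 CPM, while *Serpinb9* ran from 11.3 to 144 CPM. Other lists were highest in the KRM RAS replicates of highest *Serpinb9*, with sums in replicates 1 to 3 of 45.8, 360 and 447 CPM for fibroblasts and pericytes, 27.9, 183 and 157 CPM for endothelium (7 genes) and 615, 4544 and 3488 CPM for tubule. The part of these lists in the values of *Serpinb9* was not tested in either population.

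The windows before *Serpina3g* and *Serpinb9* are shown for the motifs of interferon signalling, since both genes had higher means in RAS. They are chr12:104235897-104236146 and chr13:33004291-33004540, both on the plus strand of GRCm38.p6, with the same 6 motifs in capitals.
Serpina3g: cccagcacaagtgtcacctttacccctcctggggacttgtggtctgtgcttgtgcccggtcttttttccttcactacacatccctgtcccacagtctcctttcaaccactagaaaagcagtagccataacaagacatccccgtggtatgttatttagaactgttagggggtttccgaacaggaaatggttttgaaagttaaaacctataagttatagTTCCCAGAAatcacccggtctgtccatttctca
Serpinb9: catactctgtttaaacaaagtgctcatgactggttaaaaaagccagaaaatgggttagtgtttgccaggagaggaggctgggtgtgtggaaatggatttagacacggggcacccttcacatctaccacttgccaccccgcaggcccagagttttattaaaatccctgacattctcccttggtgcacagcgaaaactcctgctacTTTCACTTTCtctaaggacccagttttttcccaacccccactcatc
In *Serpina3g* the gamma-activated site TTCCCAGAA lay at -33 to -25, a motif that 7.02% of all windows held. In *Serpinb9* the interferon-stimulated response element core lay on the minus strand at -46 to -37, as TTTCACTTTC on the strand shown, against 2.98% of all windows. *Serpinb6a*, whose RAS and Sham libraries overlapped in each population, held overlapping matches to both motifs at -84 to -75 and -77 to -69 in 1 of its 2 RefSeq windows and no match to any of the 6 motifs in the other. A match is a description of the letters and not a measured binding site.

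Genes of the interferon response (10 genes) summed to 1338 to 1564 CPM in CD11chi RAS and 627 to 1508 CPM in CD11chi Sham, to 1397 to 1889 and 911 to 1350 CPM in CD11clo RAS and Sham, and to 1138 to 1457 and 912 to 1357 CPM in KRM RAS and Sham. One of them, *Cxcl9*, a chemokine induced by interferon gamma, had the pattern most like that of *Serpina3g* among 8893 genes, with a Pearson correlation of log2 CPM of 0.925 over the 21 libraries. *Cxcl9* measured 19.1 ± 3.36 CPM (SD, n = 4) in KRM Sham and 53.3 ± 7.22 CPM (SD, n = 3) in KRM RAS, and 24.8 ± 4.73 CPM (SD, n = 3) and 88.9 ± 32.7 CPM (SD, n = 4) in CD11chi Sham and RAS. The next were *Anpep* (0.859) and *Plxna1* (0.850).

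*Serping1* was high in some RAS libraries and not in others. The values were 4.91, 58.9 and 65.5 CPM in KRM RAS, 0.844, 30.0, 11.7 and 14.1 CPM in CD11chi RAS and 1.54, 43.0, 24.5 and 28.0 CPM in CD11clo RAS. The 10 Sham libraries lay between 1.97 and 8.40 CPM. In each population RAS replicate 1 fell inside or below the Sham range and the other RAS libraries lay above it. The log2 fold changes were 3.13 (standard error 0.78) in KRM, 1.66 (standard error 0.94) in CD11chi Mϕ and 2.14 (standard error 0.95) in CD11clo Mϕ. In CD11chi Mϕ the value was 0.92 without RAS replicate 2. In KRM the value was 3.62 without RAS replicate 1 and -0.18 without the libraries of high tubule markers, where only that replicate was left.

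Fibroblast and pericyte markers (8 genes, such as *Col1a1* and *Dcn*) took the same course as *Serping1*. Their sum in RAS replicates 1 to 3 of KRM was 45.8, 360 and 447 CPM. It was 32.3, 325, 87.4 and 140 CPM in CD11chi RAS and 4.84, 411, 136 and 157 CPM in CD11clo RAS, against 18.9 to 75.6 CPM in the Sham libraries. *Sparc*, *Col1a2* and *Rab20* had the patterns most like *Serping1*, with correlations of 0.906, 0.873 and 0.869 over the 21 libraries. *Serping1* is strongly expressed by fibroblasts as a matter of background, and the part of these markers in its values was not tested.

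**Figure D2:**
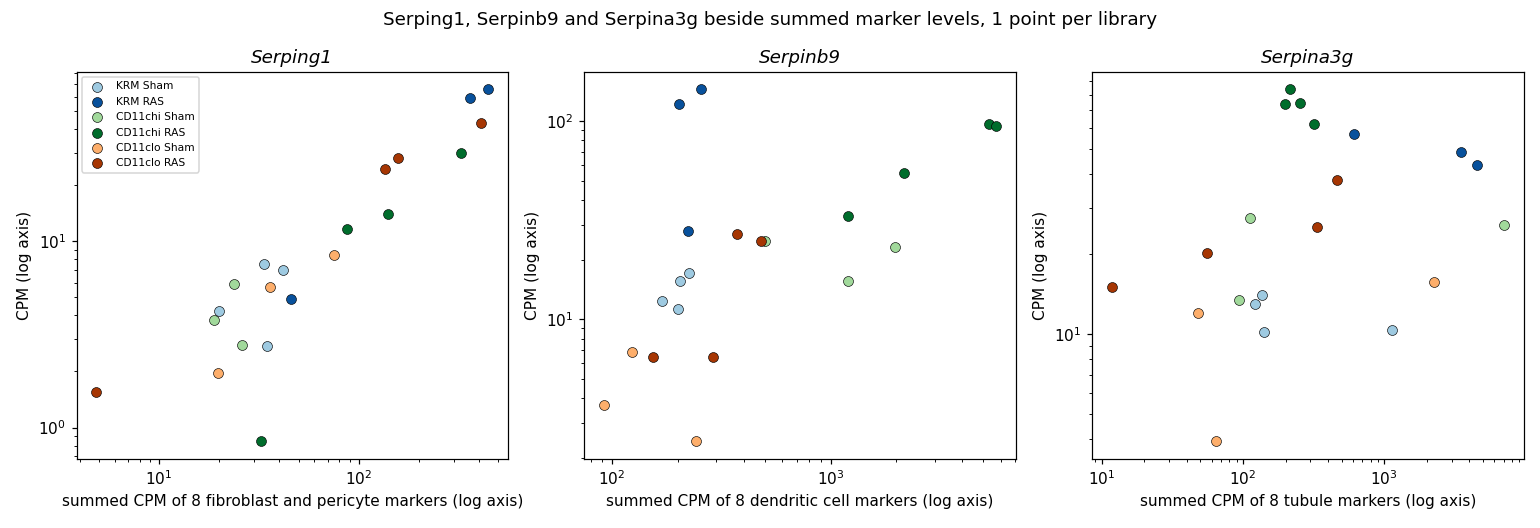
CPM of *Serping1* against summed CPM of fibroblast and pericyte markers, of *Serpinb9* against dendritic cell markers and of *Serpina3g* against tubule markers (log axes), 1 point per library, coloured by group. *Serping1* is highest in the KRM RAS libraries with fibroblast and pericyte sums of 360 and 447 CPM, and *Serpinb9* is high there at dendritic cell sums of at most 254 CPM. *Serpina3g* is highest in CD11chi RAS, whose tubule sums lie between 198 and 317 CPM.

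The proteases of the first complement step, which C1 inhibitor blocks, were measured beside it. *C1ra* rose in KRM from 5.52 ± 0.667 CPM (SD, n = 4) in Sham to 15.8 ± 6.94 CPM (SD, n = 3) in RAS, a rise of 1.63 on the log2 scale (standard error 0.34, edgeR adjusted p = 0.0327). *C1s* rose from 1.52 ± 0.463 to 16.6 ± 12.7 CPM, by 3.54 (standard error 0.75, adjusted p = 0.0331). *C1s* was at 2.26 CPM in replicate 1 and at 21.1 and 26.6 CPM in replicates 2 and 3, the same split as for *Serping1*. *C2*, the complement protease cut by C1s, fell in KRM from 27.4 ± 3.62 to 14.5 ± 2.67 CPM, a change of -0.82 (standard error 0.19, adjusted p = 0.0387). None of the 3 was called once RAS replicate 2 or 3, or Sham replicate 1, 2 or 4, was left out.

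*Serpinb6a*, a broad intracellular inhibitor that includes cathepsin G among its targets, was the flattest of the 7. Its group means lay between 30.1 and 40.9 CPM, and every neighbour in their order overlapped. The libraries ranged from 12.7 CPM in CD11clo RAS replicate 1 to 76.9 CPM in CD11chi RAS replicate 2. The log2 fold changes of RAS were 0.07 (standard error 0.23) in KRM, 0.01 (standard error 0.62) in CD11chi Mϕ and -0.23 (standard error 0.49) in CD11clo Mϕ, and without CD11chi RAS replicate 2 the CD11chi value was -0.92. Its counts were over 0.01 from a whole number in 17 of 21 libraries, and the reason was not tested. Its neighbour *Serpinb6b*, by contrast, rose in KRM from 0.961 ± 0.426 CPM (SD, n = 4) to 28.9 ± 20.6 CPM (SD, n = 3), by 5.06 (standard error 0.73, edgeR adjusted p = 0.0165), and was at 0 counts in all 3 CD11clo Sham libraries. KRM RAS replicates 1 to 3 held 5.70, 45.1 and 35.8 CPM of it, highest in the libraries of high tubule, fibroblast and endothelial markers, whose part was not tested. This call too was lost without RAS replicate 2 or 3, or Sham replicate 1, 2 or 4.

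**Figure D3:**
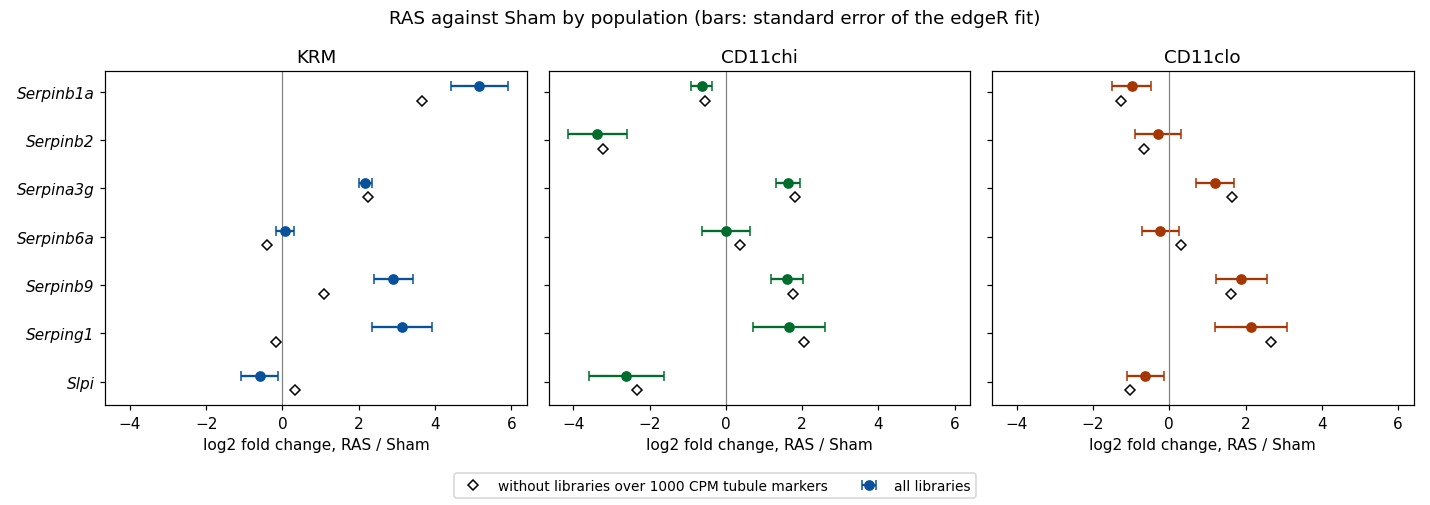
Log2 fold change of RAS against Sham (horizontal axis) for the 7 genes in KRM, CD11chi Mϕ and CD11clo Mϕ, with bars of 1 standard error and open diamonds for the values without the libraries of high tubule markers, which in KRM rest on RAS replicate 1 alone. Over all libraries *Serpina3g*, *Serpinb9* and *Serping1* lie right of 0 in all 3 populations, while *Serpinb1a* is at 5.16 in KRM and -0.64 in CD11chi Mϕ.

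Levels of different genes can be set side by side only per length. On the deposited log2(TPM + 1) scale, which is corrected for length and quantile normalised, the mean in CD11clo Sham was 9.58 for *Slpi*, 5.78 for *Serpinb1a*, 5.70 for *Serpinb2*, 5.38 for *Serpinb6a*, 3.52 for *Serpina3g*, 2.57 for *Serping1* and 1.73 for *Serpinb9*. In KRM Sham *Serpinb6a* led at 5.18, followed by *Slpi* at 3.94 and *Serpina3g* at 3.68, and *Serpinb1a* and *Serpinb2* were lowest at 0.90 and 0.05. In KRM RAS replicates 2 and 3 *Serpinb9*, *Serping1* and *Serpina3g* came first at 6.30, 6.15 and 5.79, with *Serpinb1a* at 5.60, *Serpinb6a* at 5.48, *Slpi* at 2.23 and *Serpinb2* at 0.02. *Slpi* thus came first in CD11clo Sham and next to last in those KRM libraries, which had tubule sums of 4544 and 3488 CPM and fibroblast and pericyte sums of 360 and 447 CPM, and the part of these markers in the order was not tested. KRM RAS replicate 1 was left out here because its columns in both tables did not match, as given above. Its log2 column gave *Slpi* at 6.45 and *Serping1* at 6.35, where its counts gave 9.23 and 4.91 CPM.

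Across the 21 libraries, *Serpinb2* and *Slpi* had a correlation of log2 CPM of 0.920, *Serpina3g* and *Serpinb9* of 0.799, and *Serpinb9* and *Slpi* of -0.705. These correlations describe libraries that share populations, treatments and depth. The patterns most like *Slpi* were those of *Padi4*, *F5* and *Alox15* (0.963, 0.958 and 0.947), and those most like *Serpinb2* were *Sepx1*, *F5* and *Fcna* (0.933, 0.932 and 0.926), of which *Alox15* and *Fcna* were in the list of serous cavity macrophage genes. *F5*, coagulation factor V, measured 404 ± 167 CPM (SD, n = 3) in CD11clo Sham, 29.9 ± 7.09 CPM (SD, n = 3) in CD11chi Sham and 0.961 ± 0.834 CPM (SD, n = 4) in KRM Sham. *Serpinb1a* was most like *Cd24a*, *Fam160a2* and *Hip1r* (0.958, 0.935 and 0.930). Genes close to *Serpinb9* included *Sdc1* and *Fam46c* (0.894 and 0.866), and *Serpinb6a* was, less closely, most like *Blvrb*, *Sav1* and *Ctsl* (0.761, 0.753 and 0.734).

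Of 151 other inhibitors and proteases listed, 2 (*BC117090* and *Cpamd8*) were not found in the count table, and the 49 to 73 that passed the filter on low counts in a comparison were tested in the same fits, and their calls are counted at an adjusted p under 0.05 from edgeR's quasi-likelihood test over all genes. For each comparison the share of all tested genes called is given as the background, together with the number of the 7 genes called, from which nothing is read because they were chosen on these values. In Sham kidneys, KRM against CD11chi Mϕ gave 1 higher and 5 lower of 52 listed genes tested, against 5.12% of all genes, with 3 of the 7 called. *Serpinf1*, the secreted anti-angiogenic serpin PEDF, was higher in KRM at 60.6 ± 11.3 CPM (SD, n = 4) against 23.1 ± 6.78 CPM (SD, n = 3), by 1.34 (standard error 0.23, adjusted p = 0.0224). *Plaur*, the urokinase receptor, had 5.89 ± 1.32 CPM in KRM and 80.5 ± 51.1 CPM in CD11chi Mϕ, a difference of -3.81 (adjusted p = 0.00826), as were *Serpinb10-ps* (-3.68, adjusted p = 0.0367) and *Spint1*, an inhibitor of hepatocyte growth factor activator (-1.41, adjusted p = 0.0139). With the block on replicate number, which treats these libraries as paired, 2 listed genes were called, *Plaur* and *Cfb*, and *Serpinf1*, *Serpinb10-ps* and *Spint1* were not. The count was 10 without CD11chi Sham replicate 3, 3 without CD11chi Sham replicate 1, 2 without KRM Sham replicate 1, 2 or 4, and 14 without the libraries of high tubule markers.

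KRM against CD11clo Mϕ in Sham kidneys gave the widest difference, with 17 higher and 13 lower of 52 listed genes, against 41.8% of all genes, and 4 of the 7 were called. Cysteine cathepsins are lysosomal proteases that Serpina3g and the cystatins hold in check. On their list, which also holds the lysosomal protease legumain (*Lgmn*), 7 of 9 tested were higher in KRM (*Ctsc*, *Ctsf*, *Ctsh*, *Ctso*, *Ctss*, *Ctsz* and *Lgmn*). The list median was 0.745 beside -0.036 over all genes tested. *Ctsb* and *Ctsl* were not called, at 0.27 (standard error 0.15) and -0.39 (standard error 0.25). *Ctss*, cathepsin S, averaged 4393 ± 551 CPM (SD, n = 4) in KRM, against 2067 ± 323 CPM (SD, n = 3) in CD11clo Mϕ. *Cst7*, or cystatin F, an inhibitor of cathepsins in lysosomes, averaged 0.133 ± 0.0452 CPM in KRM and 16.5 ± 4.51 CPM in CD11clo Mϕ (adjusted p = 8.03e-06). *Serpinf1* was higher by 3.52 and *C2* by 2.86, and *Plau*, urokinase, by 2.39 (adjusted p = 2.53e-05, 0.000434 and 0.0105). *Plaur* was lower by -6.06 and *Serpinb10-ps* by -5.49 (adjusted p = 1.34e-06 and 3.46e-05). Other serpins called were *Serpinb7*, higher, and *Serpina11*, lower. With the block on replicate number *Ctso* and *Serpinb7* were no longer called. CD11chi against CD11clo Mϕ in Sham kidneys gave 0 higher and 2 lower of 49, against 1.52% of all genes, with 0 of the 7 called. *Pi16*, a peptidase inhibitor, was at 21.4 ± 1.43 against 133 ± 42.1 CPM (SD, n = 3 each) and *Cst7* at 2.94 ± 0.776 against 16.5 ± 4.51 CPM (adjusted p = 0.0220 and 0.0401). With the block the count was 8, *Pi16* and *Cst7* included. It was 9 without CD11chi Sham replicate 3, 0 without any 1 of the other 5 libraries, and 20 without the libraries of high tubule markers.

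In RAS kidneys the calls rested on few libraries. KRM against CD11chi Mϕ gave 8 higher and 4 lower of 65, against 9.23% of all genes, with 0 of the 7 called. *Wfdc2* and *Wfdc15b*, whey acidic protein domain genes like *Slpi*, were higher in KRM, by 5.33 and 3.97 (adjusted p = 0.0355 and 0.0413), although the groups overlapped. *St14*, the epithelial protease matriptase, was higher by 4.45 (adjusted p = 0.0237), and *Plaur* and *Gm11428* (the whey acidic protein domain gene *Wfdc17*) were lower by -2.50 and -1.89 (adjusted p = 0.0340 and 0.0397). The count was 26 without KRM RAS replicate 1, 2 without CD11chi RAS replicate 2, and 0 without KRM RAS replicate 2 or 3 or CD11chi RAS replicate 3 or 4. KRM against CD11clo Mϕ gave 4 higher and 7 lower of 66, against 9.17% of all genes, with 2 of the 7 called. *Spint1*, *St14* and *Spint2* were higher by 4.41, 3.98 and 3.95, and *Serpinb10-ps*, *Plaur* and *Pi16* lower by -6.29, -3.73 and -2.87 (adjusted p from 0.0148 to 0.0475). The count was 29 without KRM RAS replicate 1, 21 without CD11clo RAS replicate 3, 4 without CD11clo RAS replicate 1, and 0 without KRM RAS replicate 2 or 3 or CD11clo RAS replicate 2 or 4. Both counts were 0 without the libraries of high tubule markers, where KRM RAS replicate 1 was the only KRM library and was assumed to vary like the libraries it was compared with. *St14*, *Spint1*, *Spint2* and *Wfdc2* are known from epithelia. KRM RAS replicates 2 and 3 were the RAS libraries of highest tubule markers, while *Spint1* also averaged 91.0 CPM in CD11chi RAS, whose tubule sums were 198 to 317 CPM. The part of the tubule markers in these calls was not tested.

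CD11chi against CD11clo Mϕ in RAS kidneys, none of whose 8 libraries had high tubule markers, gave 6 higher and 3 lower of 55, against 8.27% of all genes, with 4 of the 7 called. *Spint1* was higher in CD11chi Mϕ at 91.0 ± 34.3 CPM against 3.47 ± 1.90 CPM (SD, n = 4 each), by 4.71 (standard error 0.54, adjusted p = 0.00301). *Ctsw*, a cathepsin of cytotoxic lymphocytes, was higher by 2.89 and *Serpinb6b* by 2.50 (adjusted p = 0.0256 and 0.0221). The T and NK cell list summed to 60.9 to 255 CPM in CD11chi RAS and 11.8 to 34.7 CPM in CD11clo RAS. Its part in the call of *Ctsw* was not tested. *C1rl*, a relative of C1r, was lower by -2.64 and *Pi16* by -2.59 (adjusted p = 0.0202 and 0.0170). The count was 14 without CD11chi RAS replicate 1, 5 without CD11chi RAS replicate 2, 3 without its replicate 3, 2 without its replicate 4, and 1 or 5 without CD11clo RAS replicate 2 or 4.

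RAS against Sham in KRM gave 17 higher and 3 lower of 60 listed genes, against 9.7% of all genes, and 4 of the 7 were called, with *Serpinb2* not tested. Of the 11 other serpins tested, those left after the 7 were picked, 4 rose and none fell: *Serpina3f* and *Serpinb6b* (above), *Serpine2*, the secreted inhibitor protease nexin 1, and *Serpinh1*, the collagen chaperone HSP47. *Serpine2* stood at 1.38, 45.7 and 41.7 CPM in RAS and 0.713 ± 0.135 CPM (SD, n = 4) in Sham, and *Serpinh1* at 4.71, 138 and 112 CPM in RAS and 3.14 ± 0.699 CPM in Sham (adjusted p = 0.0270 and 0.0291). As for *Serping1*, RAS replicate 1 lay near the Sham level of both. *Plat*, tissue plasminogen activator, took the same course, at 0.589, 73.5 and 62.2 CPM against 1.25 ± 0.655 CPM (adjusted p = 0.0403). Beside these, mesothelial markers (5 genes) summed to 6.09, 36.5 and 32.3 CPM and mast cell and basophil markers (5 genes) to 27.7, 133 and 104 CPM in RAS replicates 1 to 3, against 0.120 to 0.499 and 1.32 to 6.69 CPM in Sham. Tubule, endothelial and fibroblast markers were also highest in replicates 2 and 3, as given above, and macrophage markers lowest. *Plaur* was higher in all 3 RAS libraries than in Sham, at 17.2, 51.2 and 48.1 CPM against 5.89 ± 1.32 CPM (adjusted p = 0.0160). *Wfdc2* rose by 7.78 (adjusted p = 0.0307). The part of the marker lists in these rises was not tested. *Gzma*, granzyme A, rose by 5.45 (adjusted p = 0.0419), and it was itself in the T and NK cell list that was highest in RAS replicate 1. That list summed to 350, 38.4 and 35.6 CPM in RAS replicates 1 to 3, against 1.69 to 3.01 CPM in Sham. *Gm11428* fell by 1.44 on the log2 scale (adjusted p = 0.0272). Of the further lists, 5 of 17 other inhibitors rose and 2 fell, and 3 of 6 genes of plasminogen activation rose. So did 2 of 7 contact and complement proteases (while *C2* fell), 2 of 11 on the list of cysteine cathepsins (*Ctsk* and *Ctsw*) and 1 of 5 cytotoxic proteases. *Ctsw* stood at 20.1 ± 24.9 CPM (SD, n = 3) in RAS and 0.493 ± 0.204 CPM (SD, n = 4) in Sham. The part of the T and NK cell list in its rise was not tested. None of the 3 mast cell proteases tested was called, and no neutrophil protease passed the filter. The median over the 11 other serpins was 0.982 and over all genes 0.016. The count was 48 without RAS replicate 1, 0 without RAS replicate 2 or 3 or Sham replicate 1, 2 or 4, and 22 without the libraries of high tubule markers, where RAS replicate 1 stood alone and was assumed to vary like the Sham libraries.

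**Figure D4:**
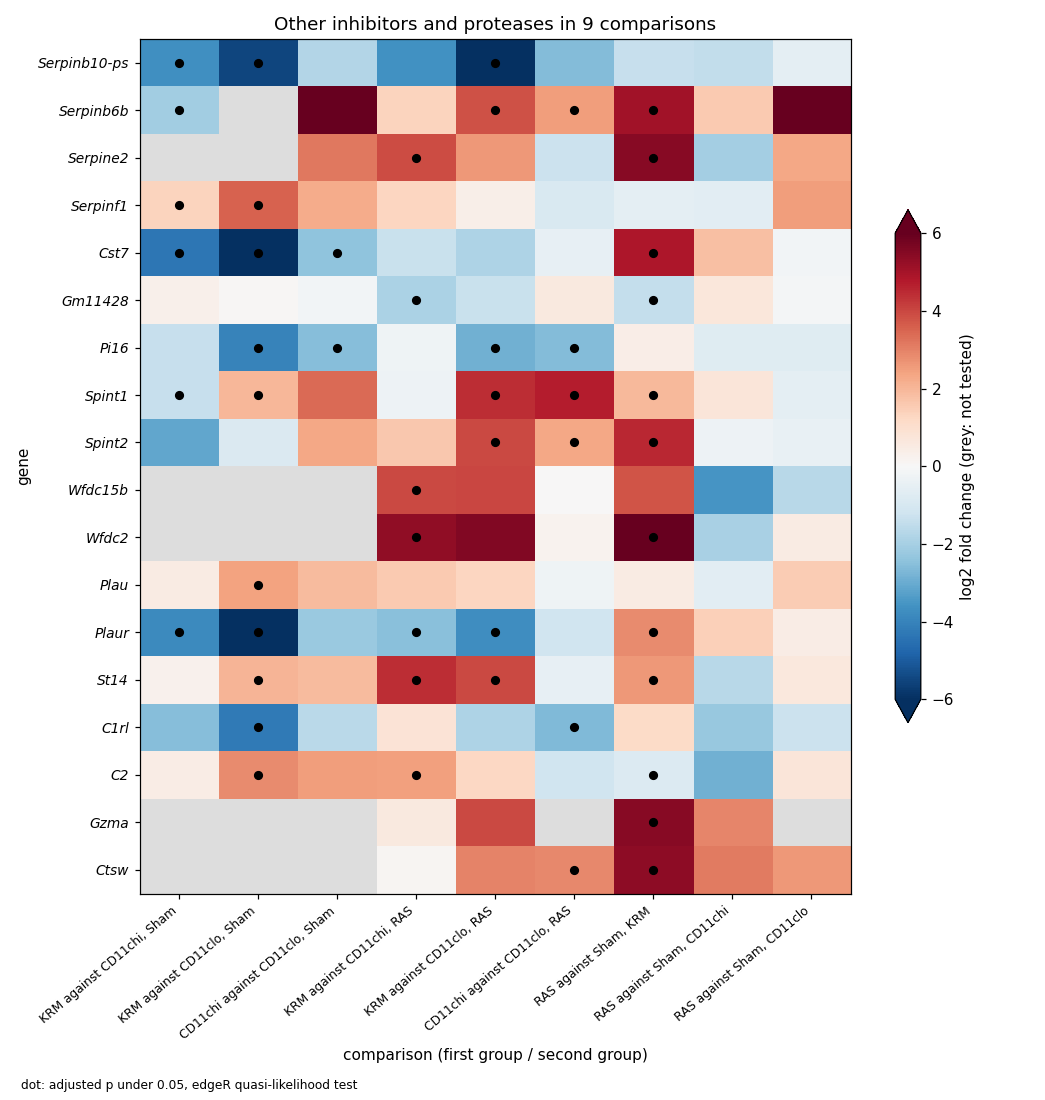
Log2 fold change (colour, grey where not tested) of the named other inhibitors and proteases (rows) in 9 comparisons of groups (columns), with a dot at an adjusted p under 0.05. *Plaur* is lower in KRM than in both other populations, in Sham and in RAS, and carries a dot in those 4 comparisons, while RAS against Sham in CD11chi and CD11clo Mϕ carries 0 dots.

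RAS against Sham gave 0 calls by edgeR in CD11chi Mϕ and in CD11clo Mϕ, where 0% of 12739 and 0% of 12301 genes passed and 0 of the 7 genes did. Without adjustment 1247 and 1102 genes had p under 0.05, and DESeq2 called 196 and 103. DESeq2 called 4 listed genes in CD11chi Mϕ and 2 in CD11clo Mϕ. *Plaur* was at 231 ± 95.9 CPM (SD, n = 4) in CD11chi RAS and 80.5 ± 51.1 CPM (SD, n = 3) in CD11chi Sham (adjusted p = 0.508). The lysosomal proteases *Ctsb* and *Ctsl*, cathepsins B and L, had group means of 2107 to 3485 CPM and 111 to 237 CPM, and neither was called in any of the 9 comparisons of groups. *Plau* stayed at group means of 1.78 to 12.4 CPM.

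The difference in the response to RAS between populations was tested as an interaction. KRM minus CD11chi Mϕ called 0% of 14137 genes (2999 at an unadjusted p under 0.05, 1270 by DESeq2), KRM minus CD11clo Mϕ 0.245% of 13877, and CD11chi minus CD11clo Mϕ 0% of 13540 (900 unadjusted, 11 by DESeq2). None of the listed genes passed in any of the 3 by edgeR. Of the 7 genes 1 did, in KRM minus CD11clo Mϕ, from which nothing is read because they were chosen on these values. As a description, the response of *Serpinb1a* was larger in KRM by 5.76 (standard error 0.79) than in CD11chi Mϕ and by 6.09 (standard error 0.96) than in CD11clo Mϕ. For *Serpina3g* the differences were 0.47 (standard error 0.33) and 0.88 (standard error 0.53), and for *Serpinb9* 1.24 (standard error 0.67) and 0.97 (standard error 0.87). The comparisons of one population share its libraries with the others, so these values are not independent of each other.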

How the data were processed

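RNA-Seq of sorted kidney macrophages gave 21 libraries, each 1 column matched to its group and replicate number by its title, with 0 columns left unmatched. Unscaled estimated counts for each gene were deposited by the authors, who aligned paired-end reads to mm10 with the OSA aligner and used Ensembl genes. A second deposited table holds TPM, quantile normalised, on the log2 scale, and was used only to set levels of different genes side by side. Neither file holds comparisons by the authors. The submitters' processing notes name DESeq2.

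Counts were rounded to whole numbers, and lines that share a symbol were summed (37620 lines, 34236 symbols). Comparisons used edgeR 4.0.16 in R 4.3.3 on the whole table: TMM scaling, filterByExpr (minimum count 10, minimum total 15) and the two-sided quasi-likelihood F test on the groups compared, adjusted by the Benjamini-Hochberg method, with calls at an adjusted p under 0.05. A standard error is the log2 fold change divided by the square root of F. Log2 CPM for correlations used a prior count of 2. The method was run on counts simulated for RAS against Sham in KRM, with the same spread for every gene. These held no split of replicate 1 and no libraries of high tubule markers, so the run does not bear on those limits. A count of 0 leaves up to 3 counts possible, for counting error only, since reads carry no molecular identifiers. All pairs of replicates differed by more than counting error, by a chi-square of at least 5.13 per degree of freedom. The lowest value was that of CD11chi RAS replicates 3 and 4, and KRM RAS replicates 2 and 3 gave 10.1. The other pairs in those groups gave at least 94.3, so these replicates were far more alike than the rest of their groups.

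The 7 genes, the lists and the tests were chosen with earlier results of these data known. Lists were other serpins (61 symbols), other inhibitors, and neutrophil, cytotoxic, mast cell, plasminogen activation, contact and complement proteases and cysteine cathepsins, and 7 of the listed symbols were found under older names by RefSeq. Named are the 7 genes, set target proteases, up to 3 listed genes with the largest rise and fall among those called with a mean of at least 5 CPM, and the 3 genes most correlated with each of the 7 among genes of mean log2 CPM of at least 3, of which 1 is not reported here. Other genes were chosen after their values were seen. Positions are from GENCODE vM21 on GRCm38.

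Replicate numbers were checked for pairing. Deviations from group means of libraries with the same number correlated by 0.349 to 0.647 between CD11chi and CD11clo Sham, 0.208 to 0.588 between CD11chi and KRM Sham and 0.201 to 0.542 between CD11clo and KRM Sham, so the Sham libraries were taken as paired across populations, from the data and not the labels. In that order, 1, 2 and 3 of 3 libraries correlated best with their own number. The highest value was that of replicate 3 each time. Replicate 3 of each Sham group held high tubule markers, whose part in these correlations was not tested, so the pairing is uncertain. Alternatives were median-of-ratios size factors, plain library totals, no filter, DESeq2 1.42.0, 1 fit over 6 groups, the replicate block, the most abundant row alone and each library left out. Leaving out the libraries of high tubule markers and summing genes that share reads were chosen after seeing the data.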

Additional observations from a re-analysis of the deposited data

Results flagged for a closer look

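*Serpinb6a* in CD11chi RAS replicate 2 stood at 76.9 CPM, where the other 3 CD11chi RAS libraries lay between 15 and 21 CPM, and its gap to the nearest of them took up 0.903 of the range of the group, past Dixon's critical value. *Serpinb2* in KRM Sham replicate 3 stood at 0.199 CPM, or 4 counts, where the other 3 KRM Sham libraries were at 0, in the library of the largest total. With the others at 0 any count would have been marked, so this value shows no more than 4 counts. These were 2 of 21 groups of 4 libraries examined over the 7 genes, and chance marks about 1 in 20. The response of *Serpinb1a* to RAS was larger in KRM than in CD11chi Mϕ by 5.76 on the log2 scale (standard error 0.79), as every KRM RAS library lay above every KRM Sham library and every CD11chi RAS library lay below every CD11chi Sham library. No test of this difference is given, because the gene was chosen on these values. Of all genes tested, 27.6% in KRM and 6.85% in CD11chi Mϕ had no overlap between RAS and Sham.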

How the results depend on the processing

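Groups held 3 or 4 libraries, and replicate 1 of KRM after RAS stood apart from replicates 2 and 3. Of the fold changes of the 7 genes under the alternatives, 787 moved by less than the SD of log2 CPM between libraries, pooled within groups, and 28 by more. That SD is not the standard error given above. Of the 28, 2 moved on summing genes that share reads, 9 without single libraries and 17 without the libraries of high tubule markers. Without the libraries of high tubule markers *Serping1* in KRM after RAS also turned to -0.18. Under that setting, which leaves replicate 1 as the only KRM RAS library, *Slpi* in KRM after RAS also crossed 0. In RAS kidneys *Serping1* went from 1.68 to -1.46 in KRM against CD11chi Mϕ and from 0.88 to -2.26 against CD11clo Mϕ, *Serpinb9* from 0.58 to -1.26 and *Serpinb1a* from 1.45 to -0.63 against CD11chi Mϕ, and *Serpinb1a* from 0.04 to -2.04 against CD11clo Mϕ. Values of *Serpinb6a* and of *Serping1* in Sham that were within 0.4 of 0 also changed sign there. Of the mean levels, 82 moved by less than the SD of their group and 2 by more, both with plain library totals. Scaling by median of ratios moved none of the fold changes. In every case the cause was not tested.

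Counts of listed inhibitors and proteases called depended on the tool. DESeq2 called 12 for KRM against CD11chi Mϕ in Sham, 11 for CD11chi against CD11clo Mϕ in Sham, 25, 33 and 17 for KRM against CD11chi, KRM against CD11clo and CD11chi against CD11clo Mϕ in RAS, 40, 4 and 2 for RAS against Sham in KRM, CD11chi and CD11clo Mϕ, and 19 and 12 for the response of KRM minus CD11chi and minus CD11clo Mϕ, against 6, 2, 12, 11, 9, 20, 0, 0, 0 and 0 by edgeR. CD11chi against CD11clo Mϕ in Sham gave 1 without a filter and 8 in 1 fit over all 6 groups. With the replicate block, KRM against CD11chi Mϕ gave 2 in Sham and 2 in RAS, CD11chi against CD11clo Mϕ in Sham gave 8, and RAS against Sham in KRM gave 1. The Sham libraries were taken as paired because every correlation was over 0.1. The lowest was -0.167 between KRM Sham and RAS, 0.054 between CD11chi and KRM RAS and 0.073 between CD11clo and KRM RAS, so those were not, although in the last 3 of 3 libraries correlated best with their own number (1 of 3 and 2 of 3 in the others). The block moved no other count by over 1.5 times, but it moved *Serping1* after RAS from 1.66 to 0.73 in CD11chi Mϕ. Without the libraries of high tubule markers the counts were 14 and 20 for KRM against CD11chi and CD11chi against CD11clo Mϕ in Sham. For KRM in RAS that setting leaves replicate 1 as the only library, so its counts are not set beside these.

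With each library left out in turn, where a lone sample is assumed to vary like the others, the counts ran from 2 to 10, 27 to 37 and 0 to 9 for KRM against CD11chi, KRM against CD11clo and CD11chi against CD11clo Mϕ in Sham, from 0 to 26, 0 to 29 and 1 to 14 for the same in RAS, and from 0 to 48 for RAS against Sham in KRM, where 48 came without RAS replicate 1. RAS against Sham in CD11chi and CD11clo Mϕ stayed at 0. The response of KRM minus CD11chi Mϕ ran from 0 to 14 and minus CD11clo Mϕ from 0 to 19, both highest without KRM RAS replicate 1, and that of CD11chi minus CD11clo Mϕ stayed at 0.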
